A study of Mus musculus with 27 samples.

Results

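Prrx1, Prrx2, Alx1, Alx4 and Shox2 are 5 genes for transcription factors with a paired-type homeodomain, all of them known from the mesenchyme of limb and head. They were chosen by name, as the listed members of this gene group, and all 5 were among the 23279 genes of the table. Their RNA was measured in 27 libraries of mouse tissue and of ES-cell-derived limb bud-like tissue (ES–LB), 3 libraries for each of 9 groups. The embryonic groups were the early forelimb bud (early FLB) and early hindlimb bud (early HLB), and the E10.5 FLB, E10.5 HLB, 3 other tissues, branchial arch (BA), cardiac tissue (Ca) and TB, the tail bud. Embryos were Slc:ICR mice, without a transgene named in the labels, and each tissue was cut from 3 embryos and not sorted. The labels give E10.0 for both early limb buds, whereas the legend of the study gives an older stage for the early HLBs than for the early FLBs, so limb type and stage cannot be told apart between them. ES–FLB and ES–HLB cells came from the mouse ES line EB5, with 1 copy of Hand2 carrying a green fluorescent reporter. After 9 days of culture the Hand2::mEGFP-positive cells of 96 aggregates were sorted by FACS. Both cultures received BMP4 and Matrigel, then LDN193189 (an inhibitor of BMP receptors), Wnt3 and hydrocortisone. ES–FLB cultures in addition received retinoic acid from day 5 to 6, and ES–HLB cultures an antagonist of retinoic acid from day 6. The ES–LBs therefore rest on 1 parental line and on cells that express Hand2, while the embryonic buds also hold ectoderm, vessels and blood.

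Paired-type homeodomain proteins bind DNA at sites with a TAAT core and act as activators or repressors of other genes. Prrx1 and Prrx2 are close paralogues of the limb, face and body wall mesenchyme, and loss of both shortens the limb and face skeleton more than loss of Prrx1 alone. Alx1 and Alx4 belong to the aristaless-like group and are best known from the face. Alx4 also acts in the anterior limb bud, where it keeps Shh from being expressed on the anterior side, and mice without it have extra anterior digits. Shox2 is needed for the upper part of the limb, the humerus and femur, and in the heart for the sinoatrial node.

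The homeobox, the DNA stretch that codes for the DNA-binding homeodomain, is what these 5 genes share, and it is shown here because it gives their grouping into paralogue pairs. For each gene 180 coding bases are given 5′ to 3′ from the GENCODE transcripts on GRCm38 (mm10). They code for the 60 residues of Prrx1 that were best matched in the other genes, and for the best match to them in each of those. They cover nearly all of the homeobox. Capitals mark the 81 bases that are the same in all 5 genes.
Prrx1: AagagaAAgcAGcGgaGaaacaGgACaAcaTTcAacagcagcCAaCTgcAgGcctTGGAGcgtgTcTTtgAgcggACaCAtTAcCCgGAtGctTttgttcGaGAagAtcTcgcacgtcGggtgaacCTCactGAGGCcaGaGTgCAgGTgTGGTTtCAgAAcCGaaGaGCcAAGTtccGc
Prrx2: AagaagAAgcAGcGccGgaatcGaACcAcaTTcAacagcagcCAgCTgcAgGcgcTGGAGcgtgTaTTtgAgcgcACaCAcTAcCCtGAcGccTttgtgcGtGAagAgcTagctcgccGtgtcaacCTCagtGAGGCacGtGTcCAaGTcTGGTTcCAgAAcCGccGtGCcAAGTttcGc
Alx1: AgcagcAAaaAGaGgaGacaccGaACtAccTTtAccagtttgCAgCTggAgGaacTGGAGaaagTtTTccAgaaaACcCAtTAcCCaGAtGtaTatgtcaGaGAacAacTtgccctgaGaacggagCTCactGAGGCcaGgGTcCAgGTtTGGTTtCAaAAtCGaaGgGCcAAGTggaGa
Alx4: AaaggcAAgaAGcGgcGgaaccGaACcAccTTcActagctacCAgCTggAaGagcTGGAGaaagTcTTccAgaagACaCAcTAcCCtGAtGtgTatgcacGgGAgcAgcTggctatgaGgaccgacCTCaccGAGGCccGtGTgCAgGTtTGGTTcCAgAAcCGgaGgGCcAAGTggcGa
Shox2: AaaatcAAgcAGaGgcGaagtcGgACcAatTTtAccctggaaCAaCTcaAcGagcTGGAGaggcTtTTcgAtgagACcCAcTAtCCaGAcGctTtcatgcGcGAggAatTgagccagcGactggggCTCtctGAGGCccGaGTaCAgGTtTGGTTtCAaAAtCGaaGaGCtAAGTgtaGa
The Prrx1 stretch spans chr1:163257910-163261986 (minus strand, exons 2 to 3 of 4) with the intron between, and that of Prrx2 spans chr2:30878445-30879524 (plus strand, exons 2 to 3 of 4). The Alx1 stretch spans chr10:103022273-103025281 (minus strand), and that of Alx4 spans chr2:93668519-93675328 (plus strand), both also in exons 2 to 3 of 4. In Shox2 it spans chr3:66975878-66978332 (minus strand, exons 2 to 3 of 5). Prrx1 and Prrx2 were identical at 142 of 180 bases and, once translated, at 57 of 60 residues. Alx1 and Alx4 shared 137 bases and 53 residues. Pairs from different groups shared 109 to 126 bases and 38 to 43 residues, and 36 of the 60 residues were the same in all 5 proteins.

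Levels are given as scaled CPM, the deposited CPM (counts per 1000000 reads) after scaling of the libraries to each other. Between 3655916 and 22139676 reads stood behind a library, most in the early buds and fewest in the limb buds of E10.5, and 3 reads corresponded to 0.152 to 0.552 scaled CPM. Replicate 2 of the E10.5 HLBs lacked values for several whole chromosomes, but all 5 genes lay outside the lost regions, so n = 3 throughout for them. Marker sums of the E10.5 HLBs, and their values of Shh, Hand2, Msx1, Sox5, Sox6 and Pdgfra, rest on the 2 other libraries. In 2 groups 1 library stood apart for these genes. Early HLB replicate 1 lay nearer to the E10.5 HLBs than the other early HLBs did (r of log2 levels with the E10.5 HLB mean 0.988 against 0.983 and 0.985 over 9536 genes), and 77 genes differed over 2-fold from its 2 companions against 35 and 27 in those. Ca replicate 3 had higher Prrx1, Alx1 and Alx4 than the other Ca libraries. Over the 9536 genes it did not stand apart, with 179 genes over 2-fold from its companions against 226 and 193 for Ca replicates 1 and 2. The labelled tissues carried their markers: summed heart muscle markers were 9572 to 11509 scaled CPM in Ca and at most 14.0 elsewhere, branchial arch markers 453 to 463 in BA and at most 54.0 elsewhere, and tail bud markers 211 to 253 in TB and at most 5.10 elsewhere. Limb mesenchyme markers (7 of 7 present) summed to 1134 to 1265 in the limb buds and 1309 to 1498 in the ES–LBs, against 338 to 410 in Ca and TB and 856 to 918 in BA. Nothing in the labels says that libraries of a group came from separate litters or cultures, so p-values measure only the spread between these libraries, which may be technical.

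Prrx1 was high in every limb sample and in BA, lower in TB and lowest in Ca. In the early FLBs its level was 419, 384 and 341 scaled CPM in replicates 1, 2 and 3, and in the early HLBs 487, 408 and 429.8. At E10.5 it was 691, 690.3 and 675 in the FLBs and 741, 646 and 709.6 in the HLBs. All E10.5 limb bud libraries thus lay above all early ones. ES–FLB libraries had 455, 469 and 471 and ES–HLB libraries 647, 664 and 636, so that the ES–HLBs stood near the E10.5 limb buds and the ES–FLBs near the early ones. BA, with 609.6, 611 and 496, lay between ES–FLBs and ES–HLBs. TB had 118, 107 and 133, and Ca 13.9, 16.2 and 31.0, so that the highest group mean exceeded that of Ca 34.3-fold. In the order of group means, E10.5 HLB and E10.5 FLB overlapped, as did ES–FLB, early HLB and early FLB in neighbouring pairs, and the other neighbours were apart.

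Prrx2 varied least, with a 5.08-fold range of group means. Its level was 122, 139.8 and 132 scaled CPM in the early FLBs, which were above every other library, and 91.2, 85.7 and 106 in the early HLBs. The E10.5 FLBs had 108, 98.8 and 96.5 and the E10.5 HLBs 114, 115 and 112. ES–FLBs held 71.7, 75.2 and 82.2, close to BA with 71.3, 65.4 and 66.7. ES–HLBs held only 42.4, 39.0 and 46.0, overlapping with Ca, where the values were 53.7, 44.1 and 63.2. Ca, low for the paralogue Prrx1, thus kept Prrx2 at levels above all TB libraries (26.3, 22.0 and 29.1).

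Alx1 was highest in the early FLBs, at 47.9, 44.3 and 48.6 scaled CPM, above all other libraries. The early HLBs had 10.95, 22.2 and 17.1, with the lowest value in replicate 1, the library that stood nearer to E10.5. At E10.5 both limb types were low, with 6.03, 5.52 and 7.21 in the FLBs and 6.25, 7.40 and 6.07 in the HLBs. ES–FLBs had 22.6, 28.6 and 19.9, overlapping with BA at 26.0, 25.4 and 17.6. ES–HLBs had 7.97, 10.46 and 7.84, just above the E10.5 limb buds. TB had 2.02, 1.65 and 1.62, and Ca 1.72, 1.85 and 8.35, so that the mean of Ca rests on replicate 3. A same-strand long non-coding RNA, Gm17028, shares 243 exon bases with Alx1, and reads of that stretch cannot be assigned to one of them.

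Alx4 was highest in the ES–FLBs, at 200.3, 186 and 179 scaled CPM, and in the early HLBs, at 134, 175 and 201. These groups overlapped, and early HLB replicate 1 was again the one nearest to E10.5. The early FLBs had 101, 109 and 91.1, the E10.5 FLBs 87.8, 96.8 and 104, and the E10.5 HLBs 97.4, 105 and 105, and these 3 groups overlapped as neighbours. ES–HLBs, with 122, 112 and 119, overlapped with BA, with 129, 111 and 128. TB libraries held 32.4, 40.8 and 29.6. Ca libraries held 3.31, 2.99 and 25.6, so that replicates 1 and 2 were lower than replicate 3 by a wide margin and the group mean of 10.6 ± 13.0 (SD, n = 3) describes none of them. Alx4 lies over part of Ext2 on the opposite strand, with no exon bases shared, and Ext2 was at 66.1 to 101 scaled CPM in every group mean.

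Shox2 showed the widest contrasts of the 5. The E10.5 FLBs had 92.3, 99.97 and 93.0 scaled CPM and the E10.5 HLBs 66.5, 71.0 and 72.3, and these 6 libraries were above all others. ES–HLBs followed with 59.6, 59.8 and 52.7. The early HLBs had 48.1, 23.8 and 28.7, with replicate 1 highest. The early FLBs had 9.84, 9.20 and 5.14, the ES–FLBs 9.56, 10.3 and 12.5, Ca 8.88, 9.95 and 12.3, and BA 10.2, 8.85 and 8.72, 4 groups whose neighbours overlapped. TB was at 0 in replicates 1 and 2 and at 0.116 in replicate 3, which is 1 read among the 24344323 of the 3 libraries. Against that single read the E10.5 FLB mean was higher by a ratio of 2381 (95% exact Poisson interval 427 to 94027, counting error only) and the ES–HLB mean by 1436 (258 to 56734). Shox2 shares 153 exon bases with Rsrc1 on the opposite strand, and since the strand setting of the counting is not given in the sources used here, some reads of that stretch may belong to either. Rsrc1 itself stood at 52.5 ± 1.10 (SD, n = 3) in TB, where Shox2 had 1 read.

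**Figure D1:**
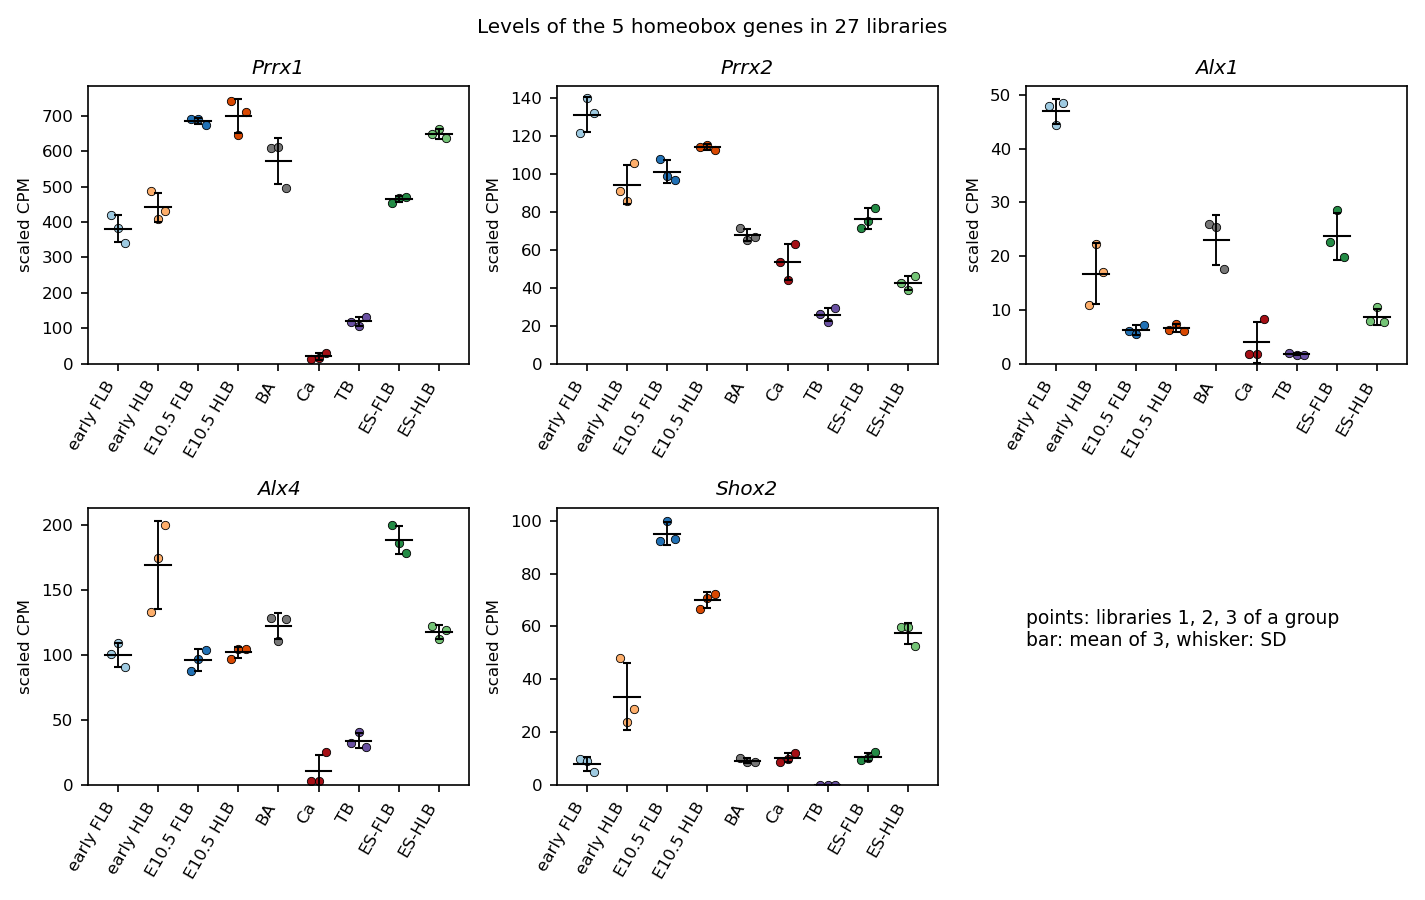
Level of each gene (vertical axis, scaled CPM, from 0) in the 3 libraries of each of the 9 groups (horizontal axis), with the mean of 3 as a bar and the SD as a whisker. Alx1 is highest in the early FLBs, Shox2 in the E10.5 limb buds and Alx4 in ES–FLBs and early HLBs, while Ca replicate 3 lies above its companions for Alx4 and Alx1.

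Levels of different genes were compared only per kilobase of transcript, for which the median, the longest and the merged GENCODE transcripts were tried, a choice made after seeing the data. In 7 of the 9 groups Prrx1 and Prrx2 were the 2 highest of the 5 under all 3 lengths, Ca and ES–HLBs being the exceptions. In Ca, Prrx2 was first, with 37.2 ± 6.64 CPM per kilobase of the median transcript (SD, n = 3), and Shox2 was second under all 3 lengths, with 6.74 ± 1.12, ahead of Prrx1, with 4.09 ± 1.87. Prrx2 was also first in the early FLBs, with 91.0 ± 6.35 against 76.5 ± 7.86 for Prrx1. Prrx1 was first in BA (115 ± 13.2) and in the ES–HLBs (130 ± 2.79) under all 3 lengths, whereas in the other groups the order of Prrx1 and Prrx2 depended on the length taken. At the low end stood Alx1 in 5 groups (early HLB, both E10.5 limb buds, Ca and ES–HLB) and Shox2 in 4 (early FLB, BA, TB and ES–FLB), again under all 3 lengths. At E10.5 Shox2 was above Alx4 in both limb buds, with 61.9 ± 2.76 against 18.3 ± 1.58 in the FLBs and 45.5 ± 1.97 against 19.5 ± 0.800 in the HLBs.

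Hindlimb and forelimb samples differed in these genes, and not in the same way in culture and in the embryo. Prrx2 and Alx1 were lower and Shox2 higher in the early HLBs and in the ES–HLBs than in their forelimb partners, while Alx4 was higher in the hindlimb in the early embryo and lower in culture. Of the 5 genes, 4 differed between the early HLBs and early FLBs (adjusted p below 0.05 by limma, as for 19.8% of the 12573 genes tested), 2 between the E10.5 HLBs and FLBs (28.0% of 12667 genes) and all 5 between ES–HLBs and ES–FLBs (25.0% of 13158 genes). Fewer cells of a type and less RNA per cell cannot be told apart in these bulk samples. Log2 fold changes are on the scale of log2(scaled CPM + 0.5), on which changes of low genes come out too small.

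In the early buds limb type and stage cannot be told apart, since the legend of the study gives an older stage for the HLBs. Shox2 had the largest hindlimb excess in the early buds and in the ES–LBs. Its log2 fold change was 1.98 (standard error 0.37, adjusted p = 0.0228) in the early buds and 2.36 (0.10, adjusted p = 8.85e-19) in the ES–LBs. At E10.5 it was lower in the hindlimb, at -0.44 (0.06, adjusted p = 2.03e-07), with all 3 HLB libraries below all 3 FLB libraries. Alx1 went the other way, with -1.51 (0.26, adjusted p = 0.0147) in the early buds and -1.38 (0.13, adjusted p = 1.18e-09) in the ES–LBs, and no difference was detectable at E10.5 (0.07, 95% interval -0.31 to 0.45). Prrx2 was lower in the hindlimb, with -0.48 (0.08, adjusted p = 0.00252) in the early buds and -0.84 (0.07, adjusted p = 3.96e-11) in the ES–LBs, and slightly higher in it at E10.5 (0.17, standard error 0.06, adjusted p = 0.0168). Prrx1 was higher in ES–HLBs than in ES–FLBs by 0.48 (0.03, adjusted p = 2.96e-13). In the embryo its hindlimb value was 0.21 in the early buds (95% interval 0.01 to 0.41, adjusted p = 0.124) and 0.03 at E10.5 (-0.05 to 0.10), neither of which passed the test.

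Alx4 had opposite signs in the early buds and in culture. Its log2 fold change was 0.74 (standard error 0.16, adjusted p = 0.0307) for early HLBs against early FLBs, where all HLB libraries exceeded all FLB libraries, and -0.67 (0.05, adjusted p = 2.19e-12) for ES–HLBs against ES–FLBs, where all libraries lay the other way. At E10.5 it was 0.09 (95% interval -0.03 to 0.21). Tested as a difference of differences over 12 libraries, the hindlimb-forelimb difference in culture minus that in the early buds was -1.41 (0.18, adjusted p = 0.000395) for Alx4 and -0.36 (0.11, adjusted p = 0.0252) for Prrx2, 2 of 5 genes where 22.3% of 13650 genes passed. It was 0.13 for Alx1 (95% interval -0.58 to 0.85), 0.39 for Shox2 (-0.54 to 1.32) and 0.27 for Prrx1 (0.06 to 0.47, adjusted p = 0.0573), which did not pass.

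The early hindlimb-forelimb calls of Alx4, Shox2 and Alx1 did not hold in every fit with 1 library left out, which also leaves fewer libraries to test. Alx4 did not pass without early FLB replicate 1 (adjusted p = 0.0937), 2 (0.0514) or 3 (0.0760) or without early HLB replicate 2 (0.0971), Shox2 without early FLB replicate 1 (0.0521) or 2 (0.0548) or early HLB replicate 3 (0.0719), and Alx1 without early FLB replicate 1 (0.0556) or early HLB replicate 3 (0.0604), with signs unchanged. Without early HLB replicate 1, the library nearer to E10.5, the values were 0.90 for Alx4 (adjusted p = 0.000223), 1.69 for Shox2 (0.0340) and -1.24 for Alx1 (1.08e-05). At E10.5 the Prrx2 call was lost without E10.5 FLB replicate 2 (0.0713) or 3 (0.106) or E10.5 HLB replicate 2 (0.0532). The Prrx2 difference between culture and embryo was lost without early FLB replicate 1 (0.0751), early HLB replicate 3 (0.0742), ES–FLB replicate 3 (0.0757) or ES–HLB replicate 1 (0.0529) or 2 (0.0748), and that of Prrx1 was gained without early FLB replicate 3 (0.00393) or early HLB replicate 1 (0.00597). In one model over all 27 libraries, which shares 1 estimate of the spread, the Alx4 differences of early buds (adjusted p = 0.317), of ES–LBs (0.366) and between culture and embryo (0.151), those of Prrx2 at E10.5 (0.246) and between culture and embryo (0.0882), that of Shox2 at E10.5 (0.119) and that of Prrx1 between the ES–LBs (0.0787) did not pass. Surface ectoderm markers moved with limb type in culture, at 77.8 to 122 summed scaled CPM in ES–FLBs and 146 to 160 in ES–HLBs, and so did undifferentiated ES cell markers (10.8 to 16.5 and 47.0 to 67.8), erythroid markers (5.28 to 8.03 and 88.6 to 166), endothelial markers (19.5 to 26.1 and 33.9 to 39.3) and neural tube markers (9.22 to 12.8 and 22.1 to 27.9). Lower in ES–HLBs were limb mesenchyme markers (1399 to 1498 in ES–FLBs and 1309 to 1351 in ES–HLBs) and muscle precursor markers (16.7 to 21.2 and 11.0 to 16.6). Heart muscle markers, low in both, were also lower in ES–HLBs (4.21 to 5.02 and 2.29 to 3.60). In the early buds surface ectoderm markers were at 342 to 448 in FLBs and 275 to 341 in HLBs, endothelial markers at 283 to 311 and 320 to 397, and muscle precursor markers at 53.8 to 62.6 and 38.6 to 49.0, again without overlap, and their part in the differences was not tested.

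**Figure D2:**
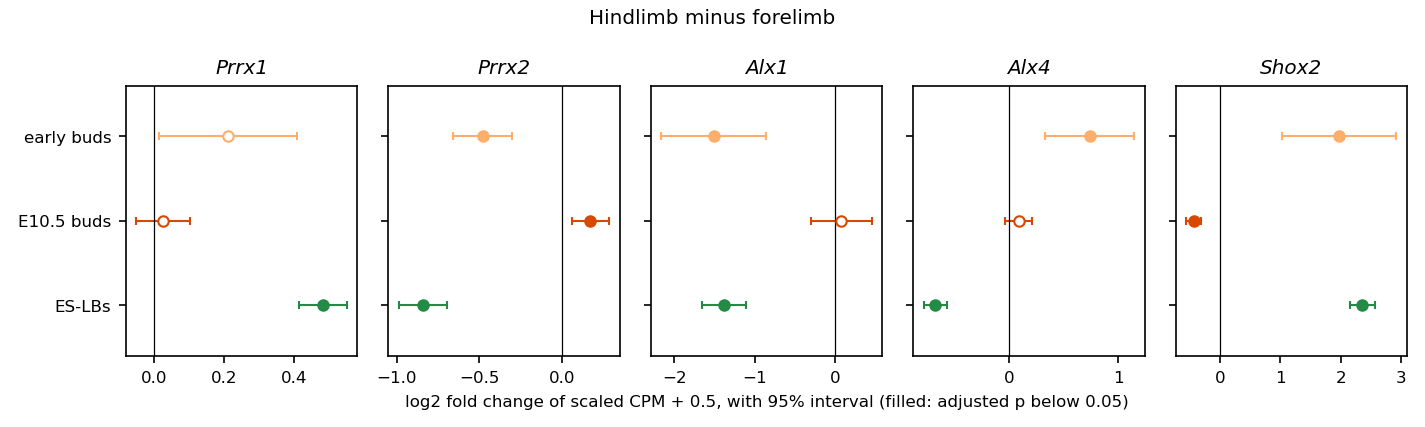
Log2 fold change of hindlimb against forelimb (horizontal axis, scaled CPM + 0.5) for each gene in the early buds, the E10.5 buds and the ES–LBs, with 95% intervals, and filled points where the adjusted p was below 0.05. Alx4 lies at 0.74 in the early buds and -0.67 in the ES–LBs, and Shox2 at 1.98, -0.44 and 2.36.

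Between the early stage and E10.5 the limb buds lost Alx1 and gained Prrx1 and Shox2. In the FLBs 4 of the 5 genes changed (65.4% of 12838 genes tested), and in the HLBs all 5 (33.3% of 12530). For Shox2 the log2 rise was 3.53 (standard error 0.25, adjusted p = 9.25e-05) in the FLBs and 1.11 (0.28, adjusted p = 0.0372) in the HLBs. Alx1 fell by 2.82 (0.11, adjusted p = 3.54e-13) and by 1.24 (0.22, adjusted p = 0.00162) on the log2 scale. Prrx1 rose by 0.85 (0.06, adjusted p = 1.3e-07) and by 0.66 (0.07, adjusted p = 3.85e-05). Prrx2 fell in the FLBs (-0.37, standard error 0.06, adjusted p = 3.18e-05) and rose in the HLBs (0.28, 0.07, adjusted p = 0.00767). Alx4 did not pass in the FLBs (-0.06, 95% interval -0.22 to 0.10) and fell in the HLBs (-0.71, standard error 0.14, adjusted p = 0.0106). The early libraries had 19644739 to 22139676 reads and the E10.5 limb bud libraries 3655916 to 5908078, so read depth cannot be told apart from stage. Markers of other cells moved with stage. Surface ectoderm markers (7 of 7 present) summed to 342 to 448 scaled CPM in the early and 210 to 222 in the E10.5 FLBs, and to 275 to 341 and 211 to 227 in the HLBs, and muscle precursor markers (4 of 4) to 53.8 to 62.6 and 77.9 to 88.5 in the FLBs and 38.6 to 49.0 and 66.0 to 67.5 in the HLBs. Their part in the differences was not tested.

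The change with stage differed between the limb types for 4 of the 5 genes, where 25.2% of 13078 genes did. The HLB change minus the FLB change was -2.42 for Shox2 (standard error 0.40, adjusted p = 0.00316), 1.58 for Alx1 (0.26, adjusted p = 0.000404), 0.65 for Prrx2 (0.10, adjusted p = 7.14e-05) and -0.65 for Alx4 (0.19, adjusted p = 0.0312). For Prrx1 it was -0.19 (95% interval -0.42 to 0.05). By the legend of the study the early HLBs were older than the early FLBs, so limb type and time between stages cannot be told apart here. Alx4 lost its call in this test without any 1 of 8 libraries, which were early FLB replicate 1 (adjusted p = 0.0628) or 3 (0.0661), early HLB replicate 2 (0.0684), E10.5 FLB replicate 2 (0.0594) or 3 (0.0711) and E10.5 HLB replicate 1 (0.0709), 2 (0.0550) or 3 (0.0520), as well as in one model over all libraries (0.530). In the HLBs the rise of Shox2 did not pass without any 1 of the 3 E10.5 HLB libraries (0.0772, 0.0921 and 0.0855 for replicates 1, 2 and 3), nor without early HLB replicate 2 (0.0732) or 3 (0.144). Without early HLB replicate 1 it was 1.40 (adjusted p = 9.24e-09), and the fall of Alx4, lost without early HLB replicate 2 (0.0927) and in one model over all libraries (0.265), was -0.87 (4.89e-08).

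ES–LBs differed from both stages of limb bud, with low Prrx2, Prrx1 and Alx1 at levels between the stages, and values of Alx4 and Shox2 that are given by limb type, the difference between the types in culture minus that in the early buds having passed for Alx4 and not for Shox2. Against the early buds of their own type, ES–FLBs differed in 4 genes (81.9% of 13140 genes tested) and ES–HLBs in all 5 (78.3% of 13238). Against the E10.5 buds all 5 differed for ES–FLBs (71.7% of 13209) and for ES–HLBs (73.5% of 13086). Most genes of the table were called in these comparisons, so the counts are near their background and the sizes carry the description. Prrx2 was lower in culture in each comparison, with -0.78 (standard error 0.06, adjusted p = 6.82e-09) for ES–FLBs and -1.14 (0.08, adjusted p = 1.33e-08) for ES–HLBs against the early buds, and -0.40 (0.06) and -1.42 (0.07) against the E10.5 buds. Prrx1 lay between the stages, above the early buds by 0.29 (0.06, adjusted p = 0.00102) in ES–FLBs and 0.56 (0.06, adjusted p = 6.1e-07) in ES–HLBs and below the E10.5 buds, with -0.56 (0.03) and -0.10 (0.04).

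Alx1 also lay between the stages, with -0.99 (standard error 0.11, adjusted p = 2.64e-06) for ES–FLBs and -0.86 (0.24, adjusted p = 0.00869) for ES–HLBs against the early buds and 1.83 (0.14) and 0.38 (0.17) against the E10.5 buds. Alx4 was higher in ES–FLBs than in FLBs of either stage, by 0.91 (0.06, adjusted p = 4.59e-09) and 0.97 (0.06, adjusted p = 6.63e-14). In ES–HLBs it was below the early HLBs, with -0.50 (0.15, adjusted p = 0.0189) and above the E10.5 HLBs, with 0.21 (0.06, adjusted p = 0.00162). Shox2 in ES–FLBs stayed near the early FLBs (0.44, 95% interval -0.04 to 0.92, adjusted p = 0.0826) and far below the E10.5 FLBs (-3.09, standard error 0.09, adjusted p = 5.89e-21). In ES–HLBs it was above the early HLBs by 0.83 (0.28, adjusted p = 0.0457) and below the E10.5 HLBs, with -0.28 (0.07, adjusted p = 0.000534).

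Several of these calls depended on the fit or did not hold with 1 library left out, which also leaves fewer libraries to test. In one model over all 27 libraries Alx4 did not pass for ES–FLBs against early (adjusted p = 0.0818) and E10.5 FLBs (0.0708) nor for ES–HLBs against early (0.334) and E10.5 HLBs (0.703), Prrx1 not for ES–FLBs against early FLBs (0.162) and ES–HLBs against E10.5 HLBs (0.631), and for the latter comparison neither Alx1 (0.358) nor Shox2 (0.214). Shox2 in ES–HLBs against early HLBs lost its call without early HLB replicate 2 (adjusted p = 0.0766) or 3 (0.140) or without ES–HLB replicate 1 (0.117), 2 (0.109) or 3 (0.0795), and Alx4 there without early HLB replicate 2 (0.0933) or ES–HLB replicate 2 (0.0601). Without early HLB replicate 1 these were 1.12 for Shox2 (1.26e-09) and -0.66 for Alx4 (8.06e-09). Shox2 in ES–FLBs passed against the early FLBs without early FLB replicate 1 (0.0223) or 2 (0.0450). Against the E10.5 HLBs, Prrx1 in ES–HLBs did not pass without E10.5 HLB replicate 1 (0.196) or 3 (0.0792) or ES–HLB replicate 3 (0.0890), and Alx1 not without E10.5 HLB replicate 1 (0.0879) or 3 (0.104) or ES–HLB replicate 2 (0.231). Sorting and dissection differed between culture and embryo. Endothelial markers (5 of 5 present) summed to 19.5 to 39.3 scaled CPM in the ES–LBs and 269 to 397 in the limb buds, erythroid markers to 5.28 to 166 and 2350 to 6966, and surface ectoderm markers to 77.8 to 160 and 210 to 448. The limb mesenchyme markers were higher in the ES–LBs as a sum, which includes Hand2, the gene of the sort reporter. Of its genes, Pdgfra and Twist1 were higher in the ES–LBs than in limb buds of either stage. Msx1 was lower, at 42.4 in ES–FLBs and 75.7 in ES–HLBs against 220 and 210 in the early FLBs and HLBs. The rest of the list, Lhx2, Lhx9 and Fgf10, was together also lower in the ES–LBs than in limb buds of either stage, by what the other genes leave of the sums. The part of these markers in the differences was not tested, and sorting cannot be told apart from culture.

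**Figure D3:**
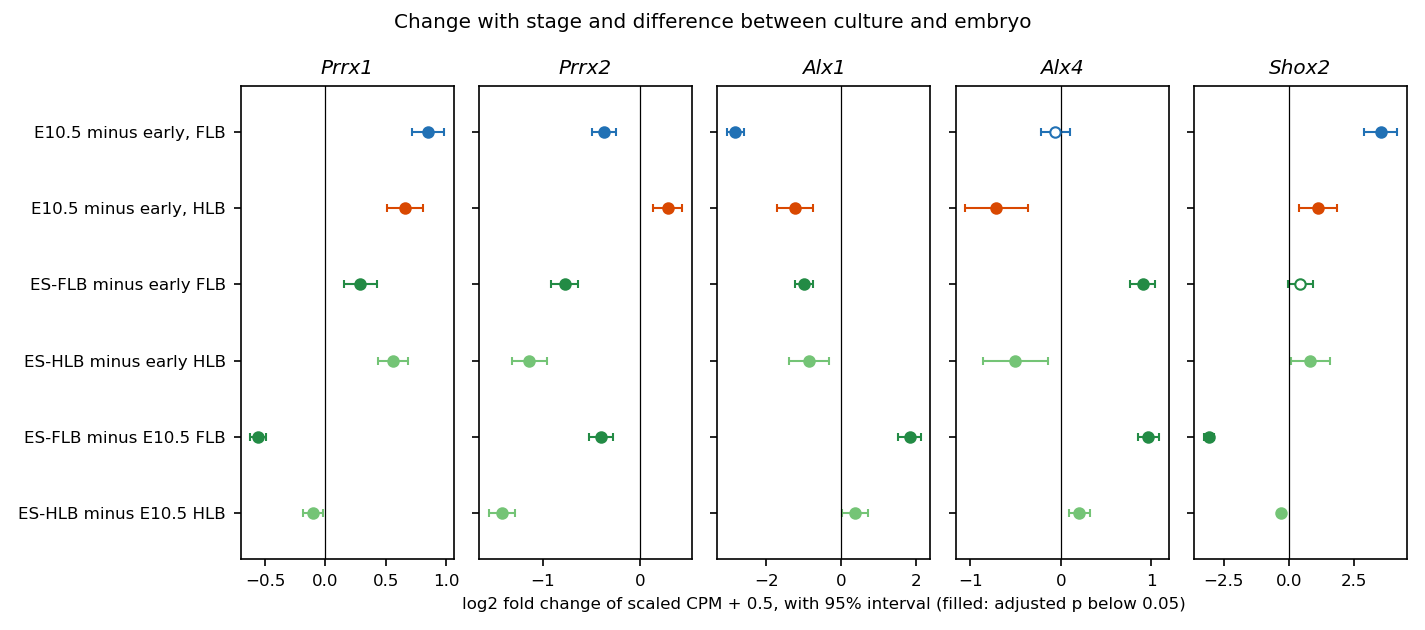
Log2 fold changes (horizontal axis, scaled CPM + 0.5, with 95% intervals, filled where the adjusted p was below 0.05) for E10.5 against early limb buds and for ES–LBs against each stage, by gene. Prrx2 lies below 0 in all 4 comparisons of culture with embryo, and Shox2 of ES–FLBs at 0.44 against the early and -3.09 against the E10.5 FLBs.

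Within each library, the balance of the paralogues changed from group to group. The ratio of Prrx1 to Prrx2 in CPM, which is free of the library scaling but depends on transcript length as a constant factor, was 3.45, 2.75 and 2.59 in the early FLBs and 5.35, 4.76 and 4.07 in the early HLBs. It was 6.40 to 6.99 in the E10.5 FLBs, 5.60 to 6.50 in the E10.5 HLBs and 5.73 to 6.34 in the ES–FLBs, groups that overlapped in part. ES–HLBs stood apart with 15.3, 17.0 and 13.8, above every other library, and Ca with 0.259, 0.368 and 0.491, below every other library. BA had 7.44 to 9.34 and TB 4.47 to 4.87. The ratio of Alx4 to Alx1 was 1.88 to 2.47 in the early FLBs, 7.87 to 12.2 in the early HLBs, 14.5 to 17.5 in the E10.5 FLBs and 14.1 to 17.2 in the E10.5 HLBs. In the ES–FLBs it was 6.52 to 8.99 and in the ES–HLBs 10.7 to 15.4. These ratios are given as a description, since they follow from the levels above.

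**Figure D4:**
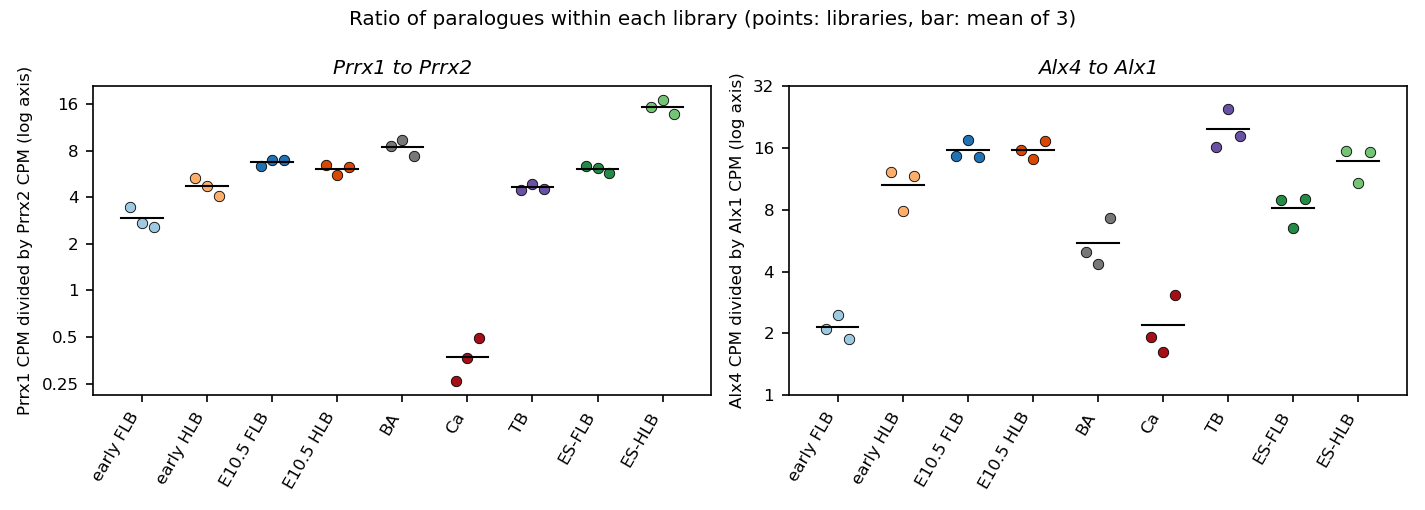
Ratio of Prrx1 to Prrx2 and of Alx4 to Alx1 in CPM (vertical axes, logarithmic) in the 3 libraries of each group, with the mean as a bar. For Prrx1 to Prrx2 the ES–HLB libraries, at 13.8 to 17.0, are highest and the Ca libraries, at 0.259 to 0.491, are lowest.

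Against other tissues of the same stage, all 5 genes were higher in the E10.5 limb buds (FLB and HLB averaged) than in Ca (38.9% of 14470 genes were called higher and 77.2% in either direction) and than in TB (23.0% and 46.4%), and 3 differed from BA (33.6%). The log2 difference from TB was 7.26 for Shox2 (standard error 0.18), 2.53 for Prrx1 (0.16), 2.04 for Prrx2 (0.09), 1.61 for Alx1 (0.31) and 1.53 for Alx4 (0.40), the first of them depending on the pseudocount since TB was near 0. From Ca it was 5.14 for Prrx1 (0.16), 3.83 for Alx4 (0.40), 2.93 for Shox2 (0.18), 1.01 for Prrx2 (0.09) and 0.94 for Alx1 (0.31, adjusted p = 0.0106). Against BA, Shox2 was higher in the limb buds by 3.07 (0.18, adjusted p = 9.95e-13) and Prrx2 by 0.66 (0.09, adjusted p = 2.19e-06), and Alx1 was lower, with -1.75 (0.31, adjusted p = 0.000218). Prrx1 (0.28, 95% interval -0.06 to 0.62) and Alx4 (-0.30, -1.14 to 0.54) did not pass.

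For the ES–LBs (ES–FLB and ES–HLB averaged) all 5 genes were higher than in TB (37.2% of genes were called higher and 76.0% in either direction) and 4 were higher than in Ca (41.3% and 80.8%), whereas 2 differed from BA (69.4%). From BA, Shox2 was higher by 1.38 (standard error 0.18, adjusted p = 2.04e-07) and Prrx2 lower, with -0.25 (0.09, adjusted p = 0.0159). Prrx2 did not differ detectably from Ca (0.10, 95% interval -0.09 to 0.28). These averages join groups that lay apart. Prrx2 of the ES–FLBs (71.7 to 82.2 scaled CPM) was above all libraries of BA and Ca, while that of the ES–HLBs (39.0 to 46.0) was below all of BA and overlapped with Ca. For Shox2, the ES–HLBs (52.7 to 59.8) were above all libraries of BA and Ca, and the ES–FLBs (9.56 to 12.5) overlapped with both. The wide intervals of Alx4 and Alx1 came with the spread within Ca. Without Ca replicate 3, an alternative chosen after seeing the data, all 5 genes passed for limb buds against BA, Prrx1 with an adjusted p of 0.0101 and Alx4 with 0.0323, and 4 for ES–LBs against BA, where Alx1 was -0.64 (0.000528) and Alx4 0.29 (0.0213), and Prrx2 passed for ES–LBs against Ca (0.22, 0.0225). Leaving out all of Ca gave the same calls against BA. Against Ca, the limb bud difference was 4.77 for Alx4 and 1.59 for Alx1 without Ca replicate 3, and 3.38 and 0.59 without replicate 1 and 3.32 and 0.63 without replicate 2, where Alx1 did not pass (0.115 and 0.103). That of the ES–LBs ranged from 3.91 to 5.36 for Alx4 and from 1.70 to 2.70 for Alx1 with 1 library left out, and Prrx2 for ES–LBs against BA did not pass without BA replicate 1 (0.0768). Limb mesenchyme markers of Ca replicate 3 summed to 410, against 343 and 348 in the others, surface ectoderm markers to 157 against 98.7 and 121, and branchial arch markers to at most 11.2 in all 3, and their part in its Alx4 and Alx1 was not tested.

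**Figure D5:**
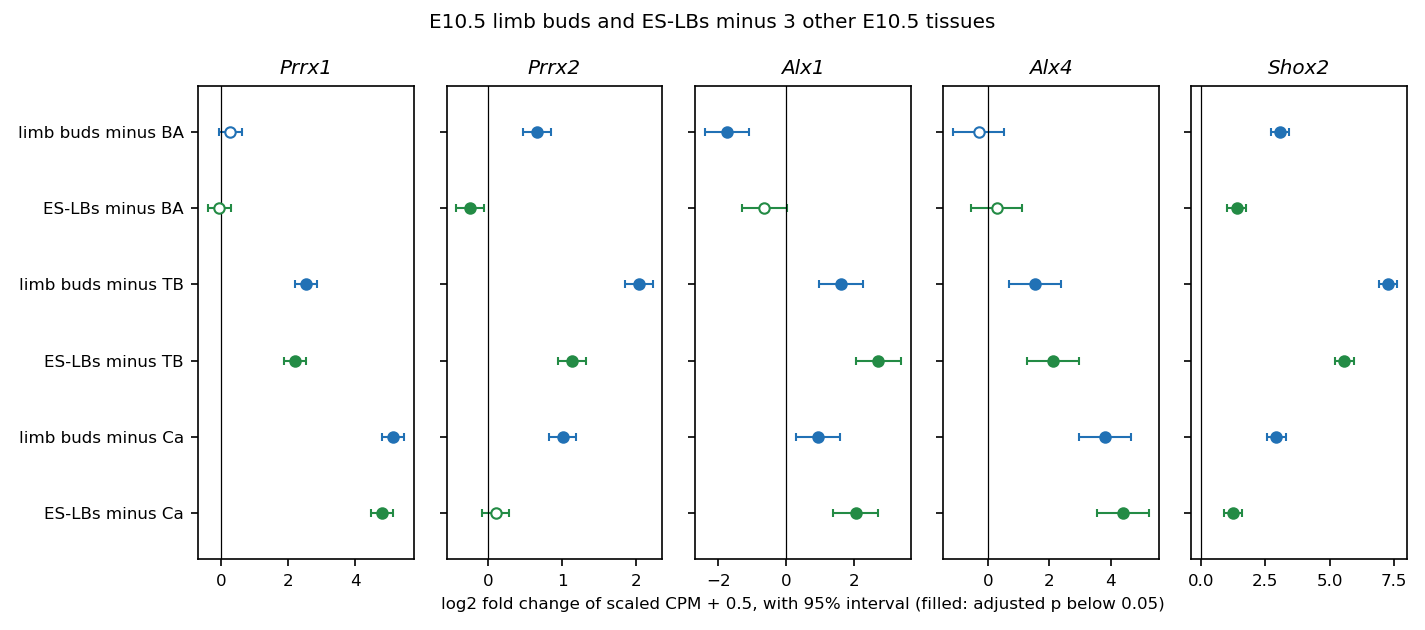
Log2 difference (horizontal axis, scaled CPM + 0.5, with 95% intervals from a model over all 27 libraries, filled where the adjusted p was below 0.05) of E10.5 limb buds and of ES–LBs from BA, TB and Ca, by gene. Differences from Ca and TB passed the test for all 5 genes except Prrx2 in ES–LBs against Ca (0.10, open point), and those from BA are small for Prrx1 and Alx4.

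The other paired-type homeobox genes, a list of 29, were mostly silent here, with 5 to 7 tested in the comparisons of limb samples. Pitx1, a hindlimb selector, was higher in the hindlimb samples (log2 fold change 4.94 in the early buds, 7.47 at E10.5 and 3.17 in the ES–LBs, all called). Between ES–HLBs and ES–FLBs 4 of 6 tested were higher and 2 lower, with a median log2 fold change of 1.33, where 25.0% of all genes were called. Gsc, known from the gastrula organizer and the craniofacial skeleton, was lower in ES–HLBs (-2.15) and in E10.5 HLBs (-0.85), both called.

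Genes known to act with or downstream of the group in limb and skeletal mesenchyme were counted as a second list of 17. In ES–FLBs against early FLBs 11 rose and 5 fell of 17, where of all 13140 genes tested 5177 rose and 5590 fell. In ES–HLBs against early HLBs 11 rose and 4 fell, where of 13238 genes 4986 rose and 5375 fell. In either direction 81.9% and 78.3% of all genes were called. The medians of the list were 1.19 and 0.58, against -0.03 and -0.02 for all genes. Hand2, whose reporter was used for the sort, is among the genes that rose in both. Tnc, a matrix protein of tendon and cartilage whose promoter Prrx1 is known to activate, stood at 399 ± 9.41 scaled CPM (SD, n = 3) in ES–FLBs and 180 ± 5.92 in ES–HLBs, against 116 ± 6.01 in the early FLBs and 13.0 ± 5.90 in the early HLBs. Runx2, the bone cell factor, stood at 64.7 ± 2.62 in ES–FLBs and 21.5 ± 2.56 in ES–HLBs, against 2.31 ± 0.786 and 0.425 ± 0.116 in the early buds. Shh, which Alx4 keeps off the anterior side, stood at 0.597 ± 0.532 in the early FLBs and 2.42 ± 1.29 in the early HLBs, at 12.1 ± 0.469 in the E10.5 FLBs and 11.2 ± 3.69 (n = 2) in the E10.5 HLBs, and at 3.20 ± 1.92 in the ES–FLBs and 1.33 ± 0.292 in the ES–HLBs. It was higher in ES–FLBs than in early FLBs (1.76, adjusted p = 0.00846) and did not pass for ES–HLBs against early HLBs (-0.59, adjusted p = 0.0761).

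The hedgehog readouts Ptch1 and Gli1 were higher in ES–FLBs than in early FLBs, by 2.26 and 5.06 on the log2 scale, and by 0.58 and 1.47 in ES–HLBs against early HLBs. Both were lower in ES–HLBs than in ES–FLBs (-1.09 and -1.13) and higher in early HLBs than in early FLBs (0.59 and 2.46), all called. Gli3, a repressor of hedgehog targets, was lower in culture (-0.98 in ES–FLBs and -0.91 in ES–HLBs). Hand2 was higher in culture (0.79 and 1.07), where its reporter had been used for the sort, so that its value there is no finding. Msx1 (-2.37 and -1.47) and Msx2 (-1.61 and -1.33), homeobox genes of the distal and anterior limb mesenchyme, and Lef1 (-1.77 and -0.91), a mediator of Wnt signals, were lower in ES–FLBs and ES–HLBs than in the early buds. Of the cartilage factors, Sox9 was higher in both (1.19 and 1.04), Sox5 passed in ES–HLBs (0.89) and not in ES–FLBs (0.18), and Sox6 was lower in ES–FLBs (-0.95) and did not pass in ES–HLBs (-0.44). Runx3 (2.13 and 2.40), Pdgfra (1.69 and 1.45), a growth factor receptor of mesenchyme, Twist1 (0.53 and 0.46), a bHLH factor of mesenchyme, and Bmp4 (1.19 and 0.16) were higher in both, all called. Between the limb types of the embryo, 3 of the 16 tested were higher and 5 lower in the early HLBs (19.8% of all genes called), and 2 were higher and 8 lower in the E10.5 HLBs (28.0%), with Tnc (-3.22 and -2.09), Runx2 (-1.57 and -2.89), Msx2 (-0.87 and -0.98) and Pdgfra (-0.21 and -0.64) lower at both stages.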

How the data were processed

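RNA of 27 libraries in 9 groups of 3 was analysed, and groups and replicate numbers were taken from the sample labels. The authors prepared libraries of stranded mRNA for single-end sequencing, aligned the reads to mm10 with HISAT2 2.0.4, counted them per gene with Cuffdiff (the labels list Cufflinks 2.1.1) and used edgeR 3.16.2, and they deposited CPM that sum to 1000000 per library. The strand setting of the counting is not given in the sources used here.

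From the deposited CPM, libraries were scaled by an unweighted trimmed mean of log ratios (30% of ratios and 5% of intensities left out at either side). A gene with at least 1 CPM in 3 or more of a fit's libraries was tested on log2(scaled CPM + 0.5) with limma 3.58.1 (trend, robust) in R 4.3.3, with Benjamini-Hochberg adjustment over all genes tested and a threshold of 0.05. Comparisons of 2 groups used their 6 libraries, the differences of differences 12, and contrasts with BA, Ca and TB all 27. The values are CPM, so no count test was run. Low values lay at whole multiples of the worth of 1 read for 94.6 to 99.1% of values (tolerance 0.05), which gave the read totals of 3655916 to 22139676 and a floor of 3 reads. Floors and Poisson intervals (95%) cover counting error only, as the reads carry no molecular identifiers. For E10.5 HLB replicate 2, 8346 values of the lost regions (chromosomes 5 to 9, X and Y, and chromosome 4 from 138304738) were set to missing. Replicate numbers were read as a sign of pairing where every same-numbered pair had r above 0.1, which held for ES–HLB and ES–FLB (0.118, 0.110 and 0.143 over 6415 genes) and narrowly not for the E10.5 limb types (0.107, 0.0801 and 0.134), from the data and not the labels. All main fits were unpaired, also for these groups. The fit with a replicate block, run as an alternative, changed no call of the 5 genes in either comparison.

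Named genes were the 5 members, other paired-type homeobox genes at 10 CPM or more in a group mean, a list of 17 partner genes, and for each member the 5 genes with the highest Pearson r across the 9 group means. Some genes of these lists are not reported here by name. The members and lists were chosen with earlier results of these data known. Positions, lengths and sequences are from GENCODE on GRCm38. Profiles were computed in Python 3.11.15 (pandas 2.3.3, numpy 2.4.6, scipy 1.17.1) and drawn in matplotlib 3.10.9. The fits were tested on simulated data with known changes. Alternatives were other scaling, filters, pseudocounts and thresholds, a replicate block, one model over all libraries and each library left out.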

Additional observations from a re-analysis of the deposited data

Results flagged for a closer look

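Of the 5 genes, 2 had a hindlimb-against-forelimb difference that was not the same in culture and in the early embryo, by a test of the difference itself (limma, adjusted over all genes). The log2 difference of differences was -1.41 for Alx4, lower in ES–HLBs than ES–FLBs and higher in early HLBs than early FLBs, with no overlap of libraries in either pair. For Prrx2 it was -0.36, with the same direction in culture and embryo and a larger fall in culture. Neither gene passed in one limma model over all 27 libraries (adjusted p = 0.151 for Alx4 and 0.0882 for Prrx2). That model includes Ca, whose libraries held 3.31, 2.99 and 25.6 scaled CPM of Alx4, and the part of this spread was not tested. With 1 library left out of the 12, Alx4 kept its call in 12 of 12 limma fits (highest adjusted p = 0.00181) and Prrx2 in 7 of 12. By the legend of the study the early HLBs were older than the early FLBs, so limb type and stage cannot be told apart in the embryonic part.

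The change from the early stage to E10.5 differed between hindlimb and forelimb for 4 genes. The HLB change minus the FLB change was 1.58 for Alx1 and 0.65 for Prrx2, and -0.65 for Alx4 and -2.42 for Shox2. Early HLB replicate 1, which stood nearer to the E10.5 HLBs, enters these values, and without it they were 1.31, 0.63, -0.81 and -2.13. Groups of 3 libraries were too small for a test of single outlying values.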

How the results depend on the processing

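Of the 85 log2 fold changes (5 genes in 17 comparisons), 69 passed. No value that passed in the main fit or in an alternative had the other sign in the other fit. Values that passed in neither could change sign, such as Alx1 between the E10.5 limb types (-0.01 to 0.17 with 1 library left out). With 1 library left out, 624 of 680 values kept their side of the threshold. Among these fits the number of the 5 genes called ranged from 1 to 4 for early HLB against early FLB (4 with all libraries), 1 to 2 for the E10.5 limb types (2), 3 to 5 for E10.5 HLB against early HLB (5), 4 to 5 for ES–FLB against early FLB (4), 3 to 5 for ES–HLB against early HLB (5) and against E10.5 HLB (5), 3 to 5 for limb buds (3) and 1 to 4 for ES–LBs (2) against BA, 4 to 5 for limb buds (5) and ES–LBs (4) against Ca, 1 to 3 for culture against embryo (2) and 3 to 4 for stage in hindlimb against forelimb (4). It stayed at 5, 4, 5, 5 and 5 for the ES–LB types, E10.5 against early FLB, ES–FLB against E10.5 FLB and both contrasts with TB. CPM as deposited, in which the truncated library is inflated by its lost genes, called 0 for the E10.5 limb types, 0 for E10.5 against early HLB, 1 for ES–HLB against E10.5 HLB, 1 for ES–LBs against BA and 2 for stage in hindlimb against forelimb. One model over all 27 libraries called 0 for the E10.5 limb types, 3 for the ES–LB types, 2 for ES–FLB against early FLB, 1 for ES–HLB against E10.5 HLB and 0 for culture against embryo, and Alx4 lost its call in 9 of the 9 comparisons of limb samples where it had one. A threshold of 0.001 called 0 for the early and 1 for the E10.5 limb types, 1 for E10.5 against early HLB, 2 for ES–HLB against early HLB, 2 against E10.5 HLB, 1 for ES–LBs against BA, 1 for culture against embryo and 2 for stage in hindlimb against forelimb. All libraries except Ca, chosen after seeing the data, called 5 for limb buds and 4 for ES–LBs against BA. With the replicate block, pairing samples by number, Prrx1 passed (adjusted p = 0.0295) and Alx4 did not (0.0624) between the early limb types, Shox2 did not (0.0646) for E10.5 against early HLB, Prrx1 passed for culture against embryo (0.0354), and the other 81 calls were the same. Scaling by the median of ratios moved 2 calls, no filter 1, and pseudocounts of 0.1 and 1 and a filter at 5 CPM none. Why calls were lost was not tested where the construction of the alternative does not show it. The planned edgeR and DESeq2 tests were not run, since not nearly all values of every library came out as whole reads.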

Other observations

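The genes with a pattern across the 9 group means most like that of each member were named by Pearson r of log2 levels over 7345 genes, as a description, since the groups share libraries, tissues and depth. Tnfaip6 (r = 0.988), Traf4, Cdc42ep4, Sox11 and Cd24a were most like Prrx1. These rankings depend on Ca and on the measure, the 5 genes standing at 3, 11, 21, 13 and 34 for Prrx1 without Ca and at 23, 581, 2, 254 and 7 by Spearman rho. Gosr2 (0.958), Fgf10, Mat2b, Arf4 and Tnks2 were most like Prrx2, and Letmd1 (0.926), Bag6, Ppp2r2b, Serpinf1 and Ube2o most like Alx1. Adnp2 (0.977), Ier5l, Tcf20, Usf1 and Dvl2 were most like Alx4. Vasn (0.898), Plcb1, Tbx15, Hiatl1 and Glrb were most like Shox2. Fgf10, the mesenchymal growth factor of limb outgrowth, had r = 0.930 with Prrx2, and Tbx15, a T-box factor of limb mesenchyme, 0.872 with Shox2, rising to 0.972 with Ca left out. Paralogues were not each other's nearest genes, with r = 0.463 between Prrx1 and Prrx2 and 0.673 between Alx1 and Alx4, and 0.942 between Prrx1 and Alx4. Without Ca these were 0.628, 0.725 and 0.734, and Prrx1 with Shox2 went from 0.509 to 0.929.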
